A study of Mus musculus with 6 samples.

Results

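The miR-106b, miR-93 and miR-25 cluster comprises 3 microRNA hairpins that are cut from one primary transcript. Rows of the deposited miRNA table were taken by name, as the 5p or 3p arm of miR-106b, miR-93 or miR-25, and all 6 possible arms were found among 1414 rows. Small RNA had been sequenced from pancreas of C57BL/6 mice in 6 libraries, 3 per group. The model group (replicates 56, 57 and 59) received 7 hourly intraperitoneal injections of caerulein, which mimics cholecystokinin and overstimulates the acinar cells, at 50 mg/kg as the labels state it. Bacterial lipopolysaccharide (LPS) was added to the last injection. The control group (replicates 43, 44 and 45) received saline on the same schedule, and tissue of both groups was taken 24 hours after the start. Caerulein and LPS were given together in every model library, so their effects cannot be told apart. Separate mice are not stated for the libraries, so the p-values reflect variation among libraries that could be technical in part.

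In mouse and human, the hairpins lie in an intron of Mcm7, which encodes a subunit of the MCM helicase that unwinds DNA at replication origins. E2F1, a transcription factor of the S-phase programme, is known to drive both Mcm7 and the cluster. In human gastric cancer cells, miR-106b and miR-93 were shown to repress the cell cycle inhibitor CDKN1A, and miR-25 the pro-apoptotic BCL2L11. A hairpin yields a 5p and a 3p arm, of which usually one (the guide) is loaded into Argonaute while the other (the passenger) is degraded. Bases 2 to 8 of the guide form the seed, which pairs with target mRNAs, so miRNAs that share a seed share many predicted targets.

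The mature sequences of the cluster are shown 5′ to 3′ because they show how the members divide into families. The deposited sequences of all 6 arms were identical to those of RefSeq (GRCm38.p6), and capitals mark the seed.
mmu-miR-106b-5p: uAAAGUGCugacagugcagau
mmu-miR-93-5p: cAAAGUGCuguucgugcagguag
mmu-miR-25-3p: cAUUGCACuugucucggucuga
mmu-miR-106b-3p: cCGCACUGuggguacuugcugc
mmu-miR-93-3p: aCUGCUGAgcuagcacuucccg
mmu-miR-25-5p: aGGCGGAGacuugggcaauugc
Guides miR-106b-5p and miR-93-5p carried the same seed and matched at 16 of 23 positions counted from the 5′ end. The miR-25-3p seed was different, and so was that of each passenger arm, whose seeds occurred in no other known row of the table.

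Both guide seeds recurred in miRNAs of other loci, mostly of the paralogous clusters miR-17 to miR-92a-1 on chromosome 14 and miR-106a to miR-363 on chromosome X. These sequences are shown because reads of such close relatives can be hard to assign and because the comparison between paralogs below rests on them.
miR-17-5p: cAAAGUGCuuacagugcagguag
miR-20a-5p: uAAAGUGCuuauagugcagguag
miR-20b-5p: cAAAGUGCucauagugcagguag
miR-106a-5p: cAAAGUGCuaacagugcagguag
miR-92a-3p: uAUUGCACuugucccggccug
miR-92b-3p: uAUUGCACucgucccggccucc
miR-32-5p: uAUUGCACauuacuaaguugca
miR-363-3p: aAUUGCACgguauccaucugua
The closest relative of miR-93-5p among them was miR-20b-5p, with 20 of 23 identical positions, and the closest of miR-25-3p was miR-92a-3p, with 18 of 22. The sources used here do not give how the authors assigned reads that match more than one miRNA. Mature miR-92a-3p and miR-19b-3p can come from either paralogous cluster, and both were counted with miR-17 to miR-92a-1.

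On GRCm38.p6 the hairpins span 498 nt of the minus strand of chromosome 5, inside Mcm7 (chr5:138164583-138172422). In the direction of transcription, Mir106b (chr5:138165737-138165818) comes first, Mir93 (chr5:138165523-138165610) follows after 126 nt, and Mir25 (chr5:138165321-138165404) after another 118 nt. All of them lie in intron 13 of the principal coding transcript of Mcm7, which has 15 exons. Mir93 and Mir25 also overlap an exon of 1 of the 10 annotated Mcm7 transcripts, and Mir106b overlaps none. The hairpins are shown from RefSeq with both mature arms in capitals.
Mir106b: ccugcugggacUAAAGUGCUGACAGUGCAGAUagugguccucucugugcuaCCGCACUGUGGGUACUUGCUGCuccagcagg
Mir93: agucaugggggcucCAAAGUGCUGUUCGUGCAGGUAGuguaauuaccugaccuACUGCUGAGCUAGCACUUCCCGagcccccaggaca
Mir25: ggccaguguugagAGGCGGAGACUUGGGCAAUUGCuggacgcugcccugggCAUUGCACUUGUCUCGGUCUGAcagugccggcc

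Total miRNA counts per library ran from 2489009 to 3006220 in the model group and from 1943693 to 2629801 in the control group. Levels are given as CPM, counts relative to library size scaled with TMM factors (trimmed mean of M-values), which set the typical miRNA to no change. Markers of acinar, islet and endothelial cells were detected, and the islet miR-375-3p was the most abundant row in every library. The summed levels were 47827 to 50990.5 CPM in model and 55777 to 92618 CPM in control libraries for 4 acinar markers. For 3 islet markers they were 39069 to 52268 CPM in model and 59266 to 81204 CPM in control libraries, and for 2 endothelial markers 32211 to 37872 CPM in model and 40568 to 47689.6 CPM in control libraries. The islet and endothelial sums were mostly miR-375-3p (log2 fold change -0.73) and miR-126a-3p (-0.36). In both, every model library lay below every control, as in 16.6% of all rows. The islet miR-184-3p (-0.71) also lay below, while the islet miR-7a-5p (0.00) and the endothelial miR-126a-5p (0.12) overlapped. Of the acinar markers, miR-216a-5p (-0.41), miR-216b-5p (-0.48) and miR-148a-3p (-0.55) lay below, and miR-217-5p (-0.50) overlapped. Control replicate 45 stood apart within its group, with 4138 CPM of the acinar miR-217-5p against 909 and 1414 CPM in the other controls. In whole tissue, fewer cells of a type and less RNA per cell cannot be told apart.

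Among the arms, miR-93-5p was the most abundant in every library, followed by miR-25-3p, miR-106b-5p and miR-93-3p, with no overlap of levels between these neighbours. Averaged over all 6 libraries, the levels were 1303 CPM for miR-93-5p, 408 CPM for miR-25-3p, 119.9 CPM for miR-106b-5p and 10.3 CPM for miR-93-3p. At the bottom of the order, miR-25-5p (2.28 CPM) and miR-106b-3p (0.973 CPM) overlapped. By rank among all rows of a library, miR-93-5p stood at places 81 to 92, miR-25-3p at 125 to 141 and miR-106b-5p at 188 to 221. The arms are of similar length, but adapter ligation favours some sequences, so levels of different arms compare reads and not molecules.

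**Figure D1:**
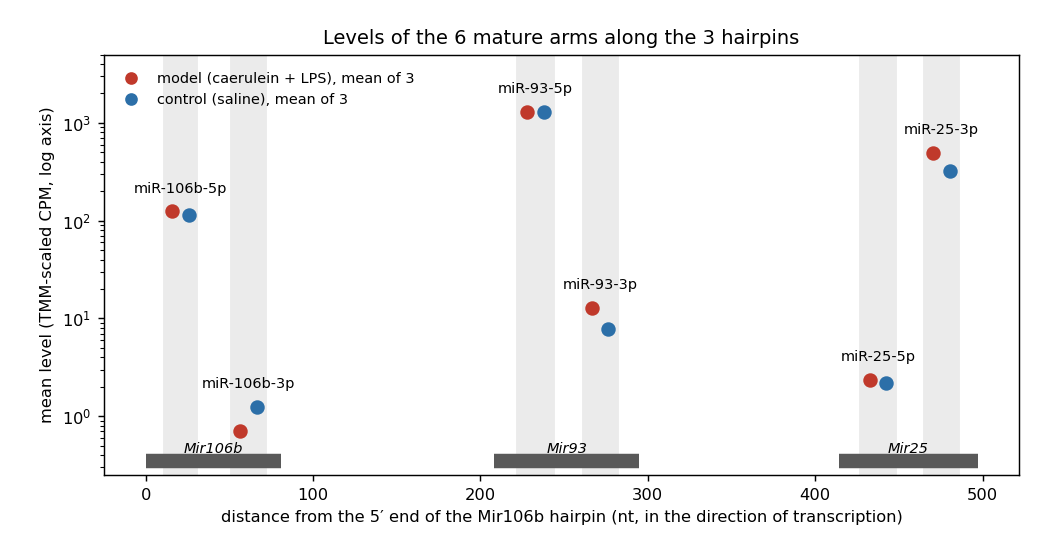
Mean level of each mature arm (TMM-scaled CPM, log axis; 3 libraries per group) at its position along the 3 hairpins, drawn to scale in nt from the 5′ end of Mir106b. One arm of each hairpin holds nearly all its reads, and the guide of the middle hairpin, miR-93-5p, is the highest, with 1302 CPM in model and 1304 CPM in control libraries.

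The comparison of the design asked which arms differ between the model and the control pancreas. None of the 4 arms that passed the filter on low counts was called at an adjusted p under 0.05 with edgeR's quasi-likelihood test, adjusted over 499 rows, where 1.20% of all rows were called (1.00% higher and 0.200% lower). DESeq2 also called none of them, with 22 of 499 rows called higher and 22 lower. At an unadjusted edgeR p under 0.05, 1 arm was higher, miR-25-3p, against 11.4% of all rows, and 0 were lower, against 12.4%. The median log2 fold change of these 4 arms was 0.36, beside 0.00 for all rows tested. Values ran from -0.0031 for miR-93-5p to 0.75 for miR-93-3p.

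The guide miR-93-5p had 1094, 1517 and 1295 CPM in model replicates 56, 57 and 59, against 1295, 1488 and 1130.3 CPM in control replicates 43, 44 and 45. The groups overlapped fully, with the lowest and the highest library both in the model group. Its means were 1302 ± 211 CPM in model and 1304 ± 179 CPM in control libraries (SD, n = 3 each). The log2 fold change was -0.0031 (95% interval -0.52 to 0.51, SE 0.22, edgeR adjusted p = 0.993), so the interval spans changes of either sign.

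Its partner by seed, miR-106b-5p, had 105, 139 and 132 CPM in model libraries, against 116, 90.1 and 139 CPM in control libraries. The groups overlapped here too. These levels rested on 282, 452 and 440 reads in model and 301, 185 and 231 reads in control libraries. The log2 fold change was 0.12 (SE 0.25, 95% interval -0.47 to 0.71, edgeR adjusted p = 0.828). Its sign turned without control replicate 44 (log2 fold change -0.04) and with upper quartile factors (-0.17).

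The guide of the last hairpin, miR-25-3p, had 424, 506 and 546 CPM in model libraries, against 360.5, 300.3 and 309 CPM in control libraries. Every model library lay above every control library, as in 14.4% of all rows, while model lay below control in 0 tested arms and in 16.6% of all rows. The means were 492 ± 62.0 CPM in model and 323 ± 32.4 CPM in control libraries (SD, n = 3 each). The log2 fold change was 0.61 (SE 0.22, 95% interval 0.10 to 1.12), with an unadjusted p of 0.0259 in edgeR's fit and an edgeR adjusted p = 0.157. Leaving out 1 library at a time gave 0.54 to 0.74 and adjusted p-values of 0.197 to 0.313.

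The passenger miR-93-3p had 15.6, 9.82 and 13.5 CPM in model libraries, against 6.93, 7.79 and 8.40 CPM in control libraries. Again every model library lay above every control, as in 14.4% of all rows, although the level rested on 32 to 45 reads per model library and 14 to 18 per control library. Its log2 fold change was 0.75 (SE 0.34, 95% interval -0.03 to 1.53, edgeR adjusted p = 0.224). DESeq2 gave no adjusted p for this row.

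The remaining passengers were near the limit of counting and were not tested. For miR-106b-3p there were 0, 4 and 3 reads in model and 4, 2 and 2 reads in control libraries, and the count of 0 in model replicate 56 allowed up to 1.11 CPM (3 counts). For miR-25-5p there were 7, 6 and 9 reads in model and 2, 2 and 8 reads in control libraries. The 8 reads came from control replicate 45, which also had the highest miR-217-5p, so 1 library set the control mean. Without the filter, on 1414 rows, their log2 fold changes were -0.75 (SE 1.06) and 0.19 (SE 0.76), with edgeR adjusted p-values of 0.771 and 0.942.

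**Figure D2:**
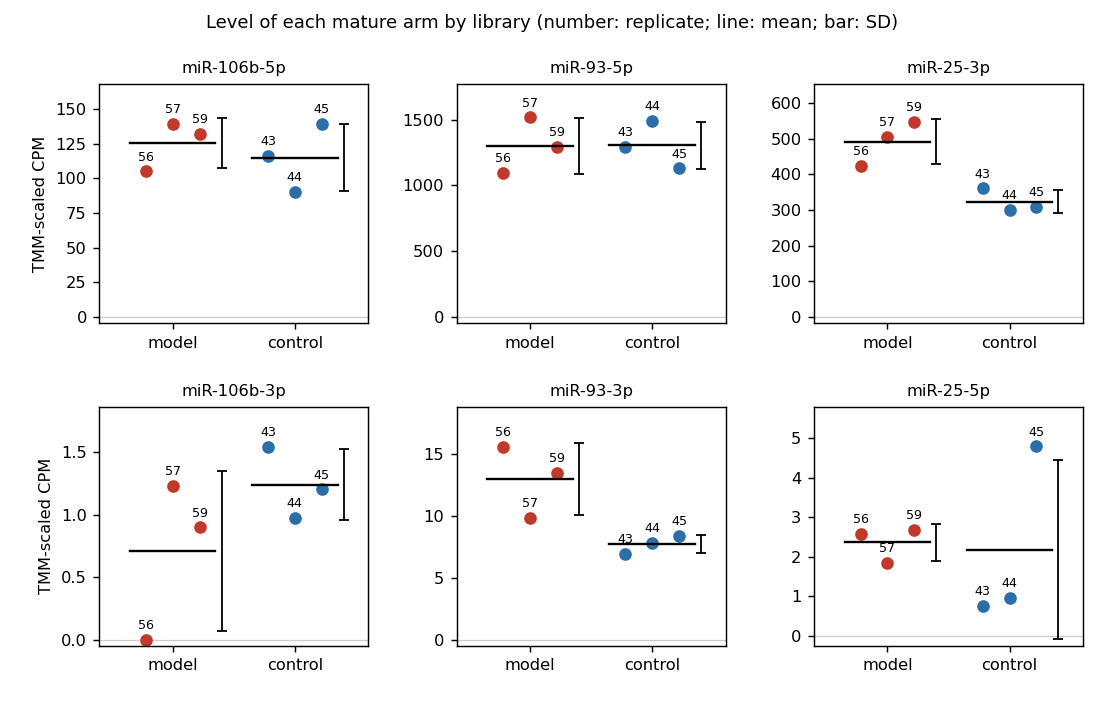
Level of each arm in TMM-scaled CPM by library, with the model group left of the control group; numbers are replicates, lines the group means and bars the SD (n = 3). The groups do not overlap for miR-25-3p and miR-93-3p, where model lies above control, as in 14.4% of all rows tested. They overlap for the other 4 arms.

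Levels of other cells' markers were set beside these results. Of 5 leukocyte markers 1 was called higher in the model group, miR-223-3p of myeloid cells, against 1.00% of all rows. The summed level of the 5 markers was 5332 to 11466 CPM in model and 4590.3 to 6865 CPM in control libraries. Model libraries lay above all controls for 3 of these markers (14.4% of all rows), while miR-142a-5p and the lymphocyte miR-150-5p (log2 fold change -0.35) overlapped. Of 5 red blood cell markers, which hold 4 distinct sequences, 0 were called by edgeR. At an unadjusted p under 0.05 there were 0, against 11.4% of all rows higher and 12.4% lower. The sums of these markers were 7110.2 to 12098 CPM in model and 10652 to 13635 CPM in control libraries. Of 4 fibroblast and smooth muscle markers, edgeR called 0, and 1 was higher at an unadjusted p under 0.05, against 11.4% of all rows. Summed, these markers had 16575 to 19938 CPM in model and 16989 to 26562 CPM in control libraries. That sum was mostly miR-143-3p, whose groups overlapped (log2 fold change -0.26). For miR-199a-3p (log2 fold change 0.49) and miR-145a-5p (0.59) every model library lay above every control (14.4% of all rows), and miR-214-3p (0.20) overlapped. None of these markers was at 0 in all libraries, and their part in the values of miR-25-3p and miR-93-3p was not tested.

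All 6 arms together took 0.178%, 0.236% and 0.231% of all counts in model libraries, against 0.176%, 0.163% and 0.137% in control libraries. The lowest model library and the highest control library were nearly level, and with TMM factors the summed levels overlapped, at 1641 to 2174 CPM in model and 1593 to 1888 CPM in control libraries. Shares within this sum and ratios between arms do not depend on how libraries are scaled to each other. Within the sum, miR-25-3p made up 25.9%, 23.3% and 27.4% in model libraries, against 20.2%, 15.9% and 19.4% in control libraries. Its mean share was 25.5% ± 2.10 in model and 18.5% ± 2.31 in control libraries (SD, n = 3 each). The share of miR-93-5p was 67.2% ± 2.37 in model and 74.2% ± 4.11 in control libraries, again with no overlap, and since shares add up, a higher share of one guide lowers the others. For miR-106b-5p the shares overlapped, at 6.45% ± 0.139 in model and 6.66% ± 1.97 in control libraries.

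**Figure D3:**
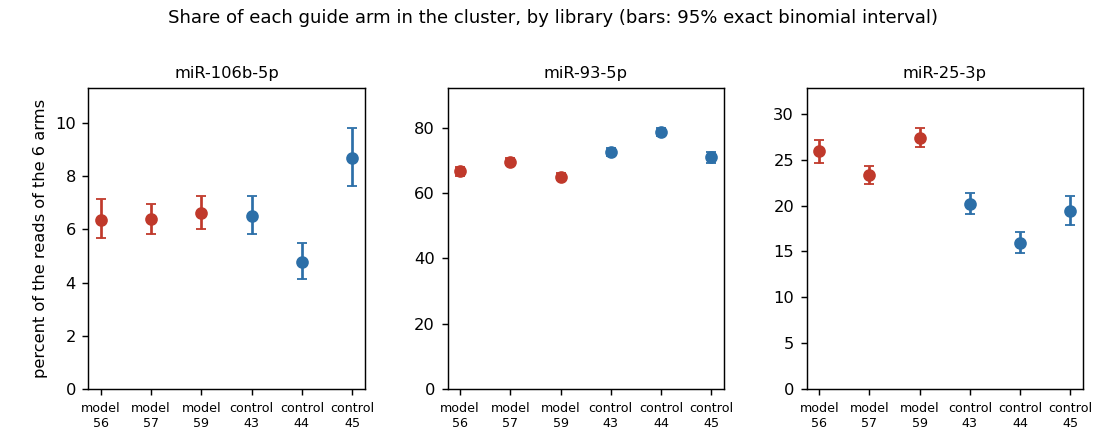
Percent of the reads of all 6 arms that came from each guide, by library, with 95% exact (Clopper-Pearson) intervals for counting error only. The share of miR-25-3p lies between 23.3% and 27.4% in model libraries, above the 15.9% to 20.2% of control libraries, and that of miR-93-5p lies below its controls.

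The difference between the arms was tested as a ratio to miR-93-5p, with limma on log2 counts after adding 1, adjusted over 498 rows. There were 0.388, 0.334 and 0.422 miR-25-3p reads per miR-93-5p read in model libraries, against 0.278, 0.202 and 0.274 in control libraries. The log2 ratio was higher in the model group by 0.61 (SE 0.26, 95% interval -0.01 to 1.22, limma adjusted p = 0.286), and all 3 model libraries lay above all 3 controls, as in 11.2% of rows (14.3% lay below). An exact two-sided permutation test gave p = 0.1, the smallest that 3 libraries against 3 allow. For miR-106b-5p the difference in log2 ratio was 0.14 (SE 0.32, 95% interval -0.61 to 0.89, limma adjusted p = 0.876). None of the other tested cluster arms differed from miR-93-5p at an adjusted p under 0.05 in limma, where 0.803% of rows were called higher and 0.201% lower. At an unadjusted p under 0.05 there were 0 such arms, against 8.43% of rows higher and 9.04% lower.

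One arm dominated each hairpin. Summed over a group, the 3p arm was 0.593% of miR-106b reads in model libraries (7 reads beside 1174 of the 5p arm; 95% exact interval 0.239% to 1.22%) and 1.10% in control libraries (8 beside 717; 0.478% to 2.16%). For miR-25 the minor arm was the 5p arm, with 0.474% in model libraries (0.297% to 0.716%) and 0.577% in control libraries (0.298% to 1.01%). For both hairpins the intervals overlapped, but they pool the reads of a group and leave out the spread among libraries. Control replicate 45 held 8 of the 12 control reads of miR-25-5p. Without it, an alternative chosen after seeing the data, the control share was 0.257% (4 reads, 0.0700% to 0.656%). That was below the share in model libraries, but the intervals still overlapped. For miR-93 the 3p arm made up 1.40%, 0.643% and 1.03% of reads in model libraries, against 0.533%, 0.521% and 0.737% in control libraries. Model replicate 57 lay between control values and the groups overlapped. The log2 ratio of 5p to 3p was 6.63 ± 0.57 in model and 7.31 ± 0.29 in control libraries (SD, n = 3 each). Its difference was -0.68 (SE 0.38, 95% interval -1.59 to 0.22), with a limma adjusted p = 0.446 over 128 hairpins, of which 0.781% were called (14.8% at an unadjusted p under 0.05).

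Of 10 tested arms of the miR-17 to miR-92a-1 cluster, 1 was called higher and 0 lower, all 10 had positive log2 fold changes and the median was 1.02. Of all rows tested, 1.00% were called higher and 251 of 499 had positive values. In 8 of the 10 arms every model library lay above every control, as in 14.4% of all rows. One arm that did not pass the filter on low counts, miR-19b-1-5p, went the other way. It had 2.22, 3.37 and 2.09 CPM in model libraries, against 3.47, 3.41 and 7.80 CPM in control libraries. The called arm, miR-18a-5p, had 194, 157 and 167 CPM in model libraries, against 49.3, 41.4 and 49.8 CPM in control libraries (log2 fold change 1.88 with a SE of 0.23, edgeR adjusted p = 0.00770). Relative to miR-93-5p it was higher by 1.88 on the log2 scale (SE 0.32, limma adjusted p = 0.0521), and the adjusted p was 0.0425 when set against the sum of the cluster arms, within a range of 0.0407 to 0.232 over all alternatives. The guide miR-19b-3p had 624, 701 and 804 CPM in model libraries, against 511, 374 and 418 CPM in control libraries (edgeR adjusted p = 0.124), with no overlap. Values of miR-19a-3p overlapped, at 11.7 ± 3.14 CPM in model and 7.72 ± 2.68 CPM in control libraries (SD, n = 3 each). The arms particular to the X-linked miR-106a to miR-363 cluster were scarce, with 7 of 10 in the table and 2 tested.

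Among miRNAs with the seed of miR-93-5p and miR-106b-5p, the largest log2 fold changes were those of miR-17-5p and miR-20a-5p. The guide miR-17-5p had 222, 245 and 258 CPM in model libraries, against 103, 105 and 133 CPM in control libraries (log2 fold change 1.09 with a SE of 0.22, edgeR adjusted p = 0.0564). Likewise miR-20a-5p had 813, 776 and 958 CPM in model libraries, against 401, 552 and 402 CPM in control libraries (log2 fold change 0.91 with a SE of 0.23, edgeR adjusted p = 0.0802). Neither passed the threshold, although every model library lay above every control, as in 14.4% of all rows. DESeq2 called both (adjusted p = 0.000649 for miR-17-5p and 0.00613 for miR-20a-5p), among 22 of 499 rows that it called higher. Over all alternatives run, the adjusted p ranged from 0.000649 to 0.209 for miR-17-5p and from 0.00549 to 0.209 for miR-20a-5p. The X-linked miR-20b-5p was at 8.99 ± 8.10 CPM in model and 6.75 ± 2.52 CPM in control libraries (SD, n = 3 each), and miR-106a-5p had at most 2 reads in a library.

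The share of miR-93-5p in its seed family did not overlap between the groups. Of all reads with this seed, miR-93-5p supplied 48.9%, 56.3% and 48.9% in model libraries, against 67.3%, 66.4% and 62.5% in control libraries. The summed level of the family was 2236, 2695 and 2648 CPM in model libraries, against 1925, 2243 and 1808 CPM in control libraries, so the groups overlapped, by 1 library each. Relative to miR-93-5p, miR-17-5p was higher by 1.10 on the log2 scale (SE 0.29, 95% interval 0.41 to 1.78, limma adjusted p = 0.150). For miR-20a-5p the difference was 0.93 (SE 0.27, 95% interval 0.30 to 1.56, limma adjusted p = 0.163). Both ratios lay higher in every model library, as in 11.2% of rows (14.3% lay below), and neither passed the adjusted test.

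In the seed family of miR-25-3p the members differed among themselves, and 0 of 5 tested were called by edgeR (at an unadjusted p under 0.05, 2 were higher, against 11.4% of all rows, and 1, miR-92b-3p, was lower, against 12.4%). The dominant member was miR-92a-3p, with 3921 ± 804 CPM in model and 3124 ± 193 CPM in control libraries (SD, n = 3 each; log2 fold change 0.33, SE 0.20, edgeR adjusted p = 0.368). Scarcer miR-92b-3p averaged 37.5 ± 6.90 CPM in model and 76.0 ± 15.5 CPM in control libraries (log2 fold change -1.02 with SE 0.27, edgeR adjusted p = 0.0841). Every model library lay below every control, as in 16.6% of all rows. DESeq2 called miR-92b-3p lower, among 22 of 499 rows (adjusted p = 0.0181, with a range of 0.0181 to 0.621 over all alternatives). The values of miR-32-5p overlapped between the groups (log2 fold change 0.16 with a SE of 0.33, edgeR adjusted p = 0.825), and miR-363-3p rested on 10, 22 and 44 reads in model and 6, 2 and 6 reads in control libraries. Of all reads with this seed, miR-25-3p supplied 9.86% ± 0.501 in model and 8.06% ± 1.10 in control libraries, with model replicate 59 (9.31%) just below control replicate 43 (9.33%).

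**Figure D4:**
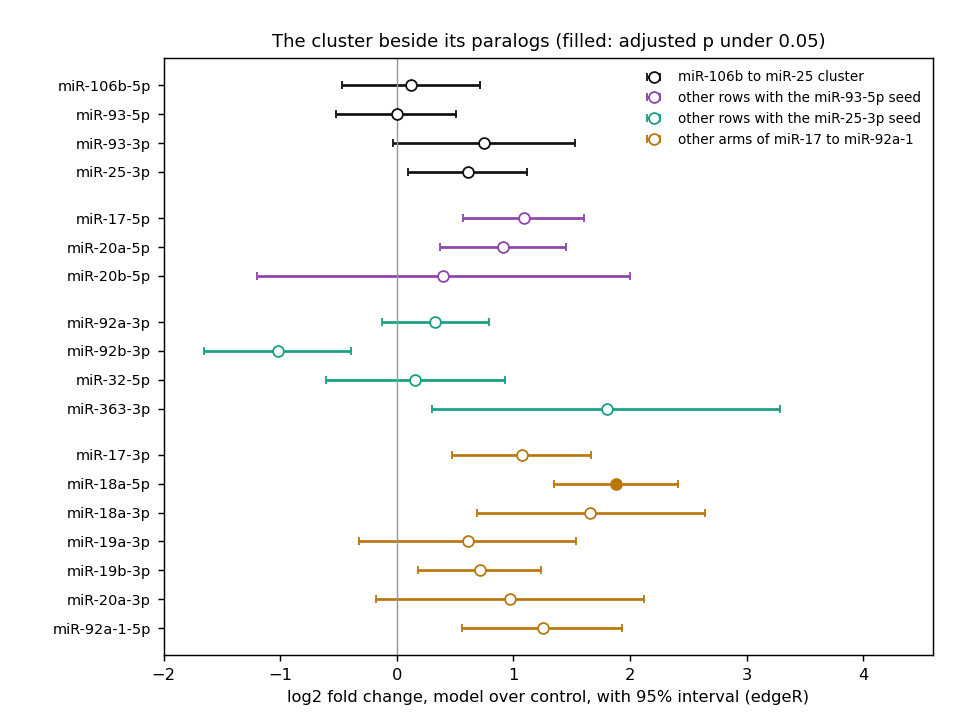
Log2 fold change of model over control with its 95% interval (edgeR, TMM factors) for the tested cluster arms, the other rows that share a guide's seed, and the other arms of miR-17 to miR-92a-1. The filled point, miR-18a-5p at 1.88, is the one called at an adjusted p under 0.05, and miR-93-5p and miR-106b-5p lie near 0.

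The rows whose pattern over the 6 libraries was most like that of each guide were found by the root mean square difference of centred log2(CPM + 1), over 439 other tested rows of known miRNAs. For miR-93-5p these were miR-191-5p (0.082), miR-10b-5p (0.098) and miR-100-5p (0.124), where the median row differed by 0.43. For miR-25-3p they were miR-19b-3p (0.083), an arm of the paralogous cluster, miR-199a-3p (0.090) and miR-455-5p (0.131), with a median of 0.51. For miR-106b-5p they were miR-219a-1-3p (0.086), miR-3065-5p (0.152) and miR-126a-5p (0.156), with a median of 0.46. Of these, miR-219a-1-3p (means of 6.79 CPM in model and 6.33 CPM in control libraries) and miR-3065-5p (7.30 and 7.20 CPM) rested on few reads. The rows named are the closest of 439, so almost any other row must differ more. From miR-106b-5p, miR-25-3p stood at place 65 (0.299) and miR-93-5p at place 70 (0.304). From miR-93-5p, miR-25-3p stood at place 163 (0.353). All of these differences between guides were below that of the median row. These values describe 6 libraries that share one scaling.

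Levels of the cluster shifted with the scaling of the libraries. The summed level was 1935 ± 271 CPM in model and 1754 ± 149.6 CPM in control libraries with TMM factors (SD, n = 3 each). In the authors' RPM values, which divide by a larger library total, it was 259 ± 70.9 in model and 135 ± 34.4 in control libraries. The miRNA counts made up 10.2% to 13.6% of those totals in model and 7.17% to 9.43% in control libraries, and with the authors' totals the median row had a log2 fold change of 0.79. Under them miR-25-3p (log2 fold change 1.39, edgeR adjusted p = 0.0180) and miR-93-3p (1.52, edgeR adjusted p = 0.0309) were among 124 of 499 rows called higher. The log2 fold change of miR-93-5p (0.79, edgeR adjusted p = 0.120) was at the median of all rows. Over all alternatives the adjusted p ranged from 0.0180 to 0.446 for miR-25-3p and from 0.0309 to 0.663 for miR-93-3p. Relative to the shift of all rows, the log2 fold change of miR-25-3p was 0.60 and that of miR-93-5p was 0.01 with these totals.

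**Figure D5:**
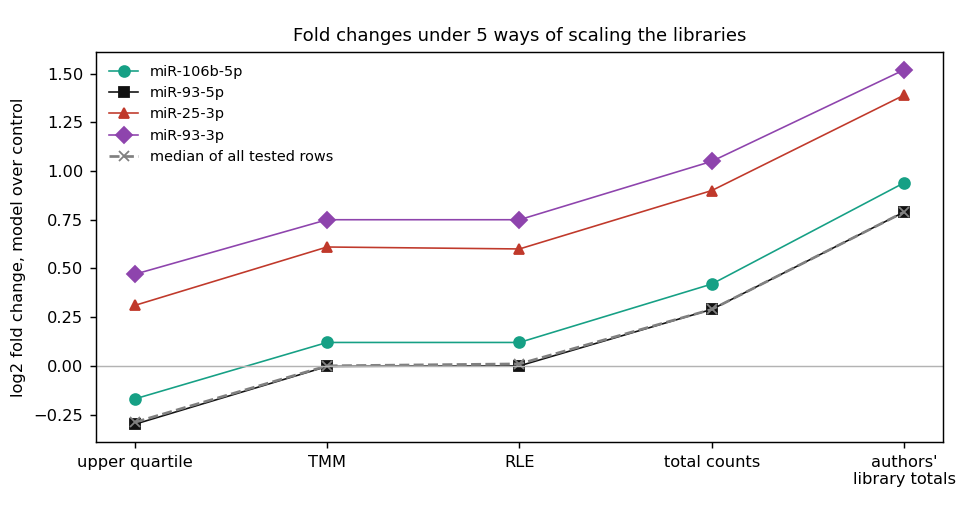
Log2 fold change of model over control for the 4 tested arms and the median of all tested rows under 5 scalings of the libraries. All lines shift together, miR-93-5p follows the median from -0.29 with upper quartile factors to 0.79 with the authors' totals, and miR-25-3p and miR-93-3p stay above it.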

How the data were processed

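Small RNA of 18 to 30 nt from mouse pancreas was ligated to adapters with unique molecular identifiers and amplified, per the labels' protocols. The authors deposited whole-number read counts per mature arm and RPM values. Each deposited RPM value is the count divided by a library total of 22055639 to 27876715, recovered here from rows with 100 counts or more; the sources used here do not say what it includes. Bowtie2 and GRCm38.p6 are named in the submitters' processing notes without a role. Whether identifiers were collapsed is not given there, so exact intervals of shares and floors describe counting error alone.

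edgeR 4.0.16 (R 4.3.3) was run on the counts: filterByExpr (minimum count 10, minimum total 15; 499 of 1414 rows kept), TMM factors, robust quasi-likelihood test, two-sided, Benjamini-Hochberg adjustment over all kept rows, threshold 0.05. Intervals of fold changes and log2 ratios are 95% intervals from the fits, over the variation among libraries. Ratios used limma 3.58.1 with robust empirical Bayes on log2 counts plus 1, for arm ratios on hairpins whose arms both averaged 10 counts or more. DESeq2 1.42.0 was an alternative. Replicate pairs had a chi-square per degree of freedom of 98.7 to 265, and none were identical. The edgeR fit and the limma fits of ratios were tested on counts simulated from the edgeR fit's own means and dispersions. Such counts cannot check whether that model suits these data.

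Named were all cluster arms, the members of both seed families, guides of miR-17 to miR-92a-1 and, per cluster guide, the 3 rows most alike. The arms miR-217-5p, miR-223-3p, miR-375-3p, miR-17-3p and miR-19b-1-5p were named, with single cell type markers, after their values were seen. Members and lists were chosen with earlier results of these data known. Sequences and hairpin coordinates are RefSeq's (GRCm38.p6), and Mcm7 models are GENCODE M21's (GRCm38).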

Additional observations from a re-analysis of the deposited data

How the results depend on the processing

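No paired analysis was possible because the groups share no replicate numbers. The number of cluster arms called was 0 under the alternatives run, except 2 with the authors' library totals, where miR-25-3p (log2 fold change 1.39) passed. For all rows, the 5 higher and 1 lower calls became 17 higher with total counts alone, 8 lower with RLE factors, 39 lower with upper quartile factors, 124 higher and 2 lower with the authors' totals, 23 higher and 35 lower without a filter, 22 higher and 22 lower with DESeq2, and 8 higher and 7 lower with known miRNAs only. Leaving out 1 library gave 3 to 5 higher and 0 to 5 lower.

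The log2 fold change of miR-93-5p changed sign with total counts (0.29), under the authors' library totals (0.79) and with repeated sequences kept once (0.01), and ran from -0.12 to 0.16 when 1 library was left out. That of miR-106b-5p was -0.17 with upper quartile factors and ran from -0.04 to 0.27 without 1 library. For miR-32-5p it was -0.11 with upper quartile factors and -0.07 to 0.48 without 1 library, and for miR-20b-5p -0.57 (without model replicate 57) to 0.88. The summed cluster level, as a log2 ratio of group means, was 0.14 and moved to -0.16 with upper quartile factors, 0.44 with total counts and 0.94 under the authors' library totals. It was 0.05 without control replicate 45 and 0.29 without model replicate 56. Under the 3 scalings the median of all rows moved by -0.29, 0.30 and 0.79.

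The difference in the log2 ratio of miR-106b-5p to miR-93-5p was -0.13 to 0.38 without 1 library. With the sum of the other cluster arms in place of miR-93-5p, it was -0.01. Of the rows tested against miR-93-5p, 4 were called higher and 1 lower, 2 lower against the sum of the cluster arms, and 0 to 4 higher and 0 to 1 lower without 1 library. The log2 ratio of miR-25-3p to miR-93-5p stayed between 0.46 and 0.70 without 1 library, and its share of the cluster sum between 5.69 and 8.12 percentage points above control. The miR-93 arm ratio, between -0.98 and -0.42 without 1 library, could not be tested where both arms had to average 50 counts.

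Depth limits the passenger arms most: 3 counts in a library correspond to 0.897 to 1.80 CPM, beside levels of 0 to 1.54 CPM for miR-106b-3p.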

Other observations

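The arms particular to the X-linked paralogous cluster, miR-106a to miR-363, were close to the limit of counting in this tissue. The shared miR-19b-3p and miR-92a-3p, which can come from either cluster, were left out. Without them the summed level was 6.67 to 29.8 CPM in model and 9.25 to 13.1 CPM in control libraries. The most abundant of the remaining arms, miR-20b-5p, had 7, 59 and 21 reads in model and 24, 14 and 7 reads in control libraries. A single library, model replicate 57, held its highest value. The guide miR-363-3p, which shares its seed with miR-25-3p, had 3.71, 6.75 and 13.2 CPM in model libraries, against 2.31, 0.974 and 3.60 CPM in control libraries (log2 fold change 1.80 with a SE of 0.64, edgeR adjusted p = 0.157).

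The arms of the miR-17 hairpin were closer in level than those of miR-93. There were 499, 379 and 529 reads of miR-17-3p in model libraries, beside 599, 798 and 862 reads of miR-17-5p. In control libraries there were 212, 135 and 119 reads of miR-17-3p beside 268, 216 and 221 reads of miR-17-5p. For miR-93 there were 70.3, 154 and 96.2 reads of the 5p arm per read of the 3p arm in model libraries, against 187, 191 and 135 in control libraries. The difference between these hairpins was not tested.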
